A study of Sus scrofa with 3 samples.

Results

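The complement system was followed in pig liver through 35 genes given by symbol, grouped here by their role into 6 sets: the classical pathway, the lectin pathway, the alternative pathway with C3, the terminal pathway, the regulators and the receptors. Of the 34579 features in each table, 30 carried the exact symbol of a member, and all 30 reached an FPKM of 1 in every library. FPKM, the unit of all levels below, divides the fragments of a gene by its exon length and by a number for the library, so that levels can be compared between genes of different length. After the tables had been seen, 4 more members were found under another name: C8G, C9 and CFD under their gene ID and C4A under the RefSeq synonym C4. Counts are given for the 30 symbol matches, with those for all 34 added for the calls and the orders of the libraries. No feature was matched to C1S, which was not analysed here.

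The livers came from male Chinese Wuzhishan miniature pigs, aged 6 to 7 months when obtained, and each of the 3 groups was sequenced as 1 pooled library. All 3 groups ate a diet rich in fat and cholesterol (HFC) for 12 weeks, so that none was on a normal diet. Intact males (IM) had a sham operation, castrated males (CM) had their testes removed by surgery, and castrated males with testosterone replacement (CMT) were also injected into muscle each week with testosterone propionate at 10 mg/kg. The labels give 3 pigs in each pool, whereas the methods of the study give 6 pigs per group. The comparison of CM with IM asks what castration changed, and that of CMT with CM asks what testosterone replacement changed.

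With 1 library per group no difference has a replicate check, the variation between pigs is unknown, and no p-value was calculated. A gene was counted as higher or lower when its FPKM differed by at least 1.5-fold between the libraries. Intervals beside ratios are 95% exact binomial (Clopper-Pearson) intervals on the number of reads recovered from the FPKM values, and they cover counting error in these libraries only. CM versus IM and CMT versus CM share the CM library, so a value that is by chance low in CM moves both in opposite directions. Levels are given in the order IM, CM, CMT throughout. In a bulk tissue, fewer cells of a type and less RNA per cell cannot be told apart.

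Complement is a cascade of plasma proteins, most of which are made by hepatocytes. It is started by C1q on antibody-coated surfaces, by mannose-binding lectins, ficolins and collectins on microbial sugars, or by the slow turnover of C3 itself that the alternative pathway amplifies. All routes cleave C3 and then C5, after which C5b to C9 assemble into the membrane attack complex. Regulators in plasma and on host cells limit each step, and the small fragments C3a and C5a act on receptors of myeloid cells. Several components are also acute phase proteins, whose synthesis in the liver follows inflammatory cytokines.

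Recovered reads came to 32197638, 36126743 and 25419908, and 3 reads on a transcript of 1 kb stood for an FPKM of 1.195, 0.877 and 1.47. The library divisors behind the FPKM values, 2.51, 3.42 and 2.04, were not in proportion to these reads. Scaling the libraries to their recovered reads therefore raised CM against IM by 0.28 on the log2 scale for every gene and lowered CMT against CM by 0.24, and the median of all mRNA features moved from -0.020 to 0.26 and from 0.013 to -0.23. Ratios below are of the values as deposited, and the order of the libraries for genes with small differences depends on this choice. Of the 8 hepatocyte markers, 7 were found, none was at 0, and their summed FPKM was 1084761, 831609 and 829004, a CM to IM ratio of 0.767. Albumin (ALB) made up much of that sum, at 690375, 476360 and 445509. In CM versus IM, 6 of the 7 ratios were below 1 and 0 were at least 1.5-fold lower. In CMT versus CM, 6 ratios were above 1, that of ALB was below 1, and 0 passed 1.5-fold. Markers of Kupffer cells and macrophages summed to 10671, 8035 and 9933, with 7 of 8 CM to IM ratios below 1. Of the 8, 2 were at least 1.5-fold lower, where 12.1% of all mRNA features were. The 2 were the scavenger receptor MARCO at 414, 82.8 and 317 and the lysozyme gene LYZ at 40.3, 10.18 and 21.7. The part of these cell type markers in the complement values was not tested.

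The 30 genes together held 1.96%, 2.24% and 2.29% of the summed FPKM, and their sums were 169826, 162261 and 197181. Levels spanned from 12.1 for CD55 to 40457 for C3 in IM, where C3 ranked number 23 of all mRNA features. The members with more than 10000 in IM were C3, the C1 inhibitor SERPING1, clusterin (CLU), factor B (CFB) and C1R among the symbol matches, and C9 among the others.

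**Figure D1:**
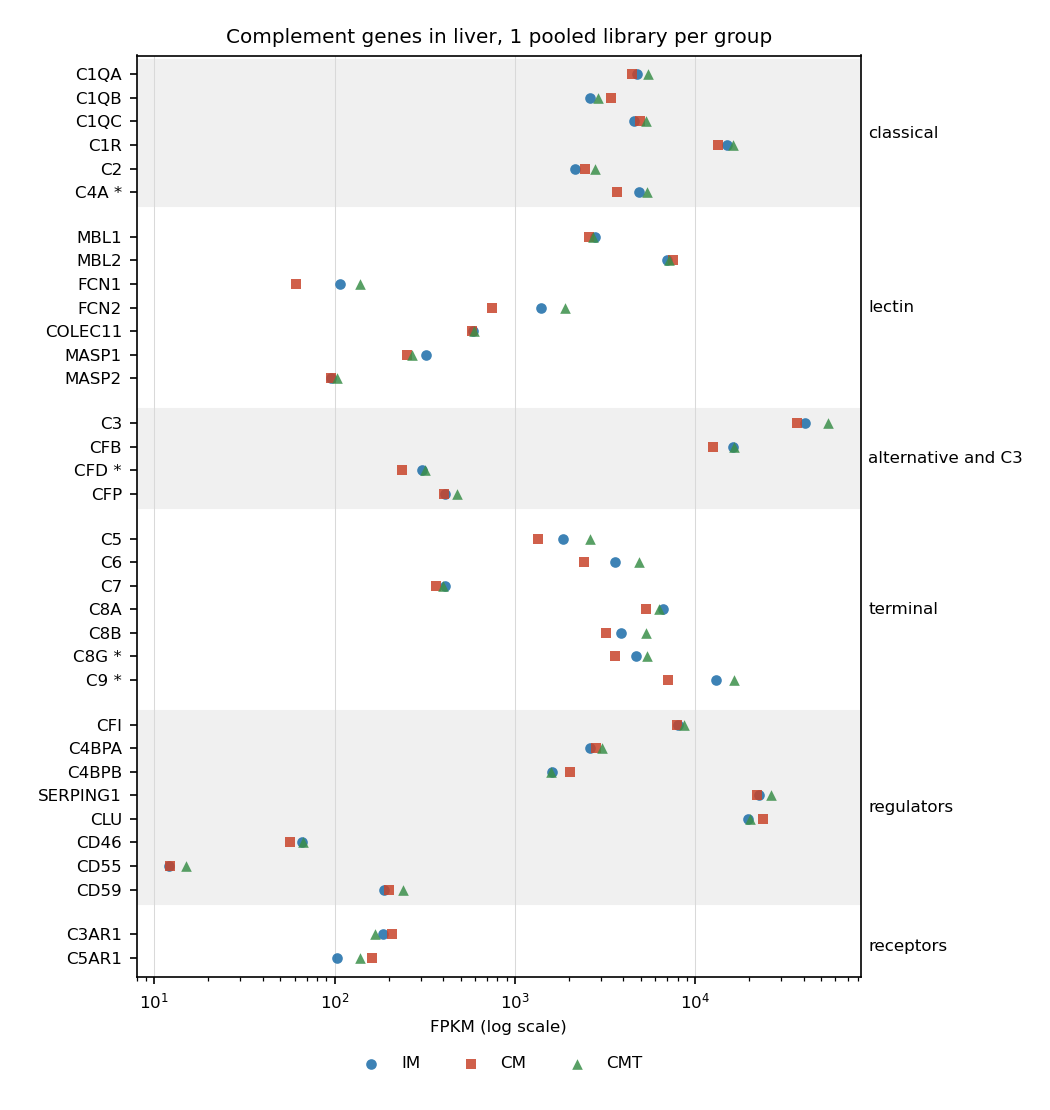
FPKM on a log scale for each of 34 complement genes in the IM, CM and CMT libraries, 1 pooled library per group and no error bars. Genes are grouped by role, and an asterisk marks the 4 genes matched by gene ID or synonym. The CM square stands well to the left of both other points for FCN1, FCN2, C6, C5 and C9, and the 3 points nearly coincide for MBL2, COLEC11 and MASP2.

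In the comparison of CM with IM, 1 of the 30 genes was at least 1.5-fold higher (C5AR1) and 2 were at least 1.5-fold lower (FCN1 and FCN2). Among the 15613 mRNA features that reached an FPKM of 1 in every library, 11.1% were higher and 12.1% were lower by this rule, so that the members' counts were not above the background. With the 4 further matches, 1 was higher and 3 were lower, the addition being C9. The median log2 ratio of the members was -0.033, beside -0.020 for all mRNA features. With the libraries scaled to recovered reads, 3 members were higher (C5AR1, C1QB and C4BPB) and 1 was lower (FCN2), where 22% and 6.42% of all features were.

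In the comparison of CMT with CM, 5 of the 30 genes were at least 1.5-fold higher (FCN1, FCN2, C5, C6 and C8B) and 0 were lower, whereas 12.1% of all mRNA features were higher and 13.5% were lower. The 4 further matches made this 7 higher, with C8G and C9, and 0 lower. The members' median log2 ratio was 0.21, beside 0.013 for all mRNA features. Ratios above 1 were found for 24 of 30 members, or 28 of 34, and for 8033 of 15613 mRNA features. With scaling to recovered reads 4 were higher and 0 lower, against 6.82% and 22.4% of all features. The members' median became -0.028, beside -0.23 for all mRNA features, and 15 of 30 ratios were above 1. The members' median lay 0.20 above that of all features under every scaling, because a scaling moves both alike.

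CMT and IM differed in no member by this rule. Of the 30 genes, 0 were at least 1.5-fold higher and 0 lower in CMT than in IM, also with the 4 further matches, where 6.67% and 10.1% of all mRNA features were. The median log2 ratio of the members was 0.18, beside -0.0072 for all features. The 30 ratios ranged from 0.841 for MASP1 to 1.41 for C5.

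The CM library lay at least 1.5-fold below both others for FCN1 and FCN2, and with the further matches for C9, where 7.12% of all mRNA features did so. It lay as far above both for 0 members, against 6.87% of all features. Counting any size of difference, CM was the lowest library for 18 of 30 genes (22 of 34), against 38.7% of all features, and CMT the highest for 20 of 30 (24 of 34), against 33.2%. These 2 orders do not hold under every scaling: with recovered reads CM was the lowest for 6 and the highest for 14 of 30, and CMT was the highest for 14. Over the 34 genes these numbers were 10, 14 and 18.

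**Figure D2:**
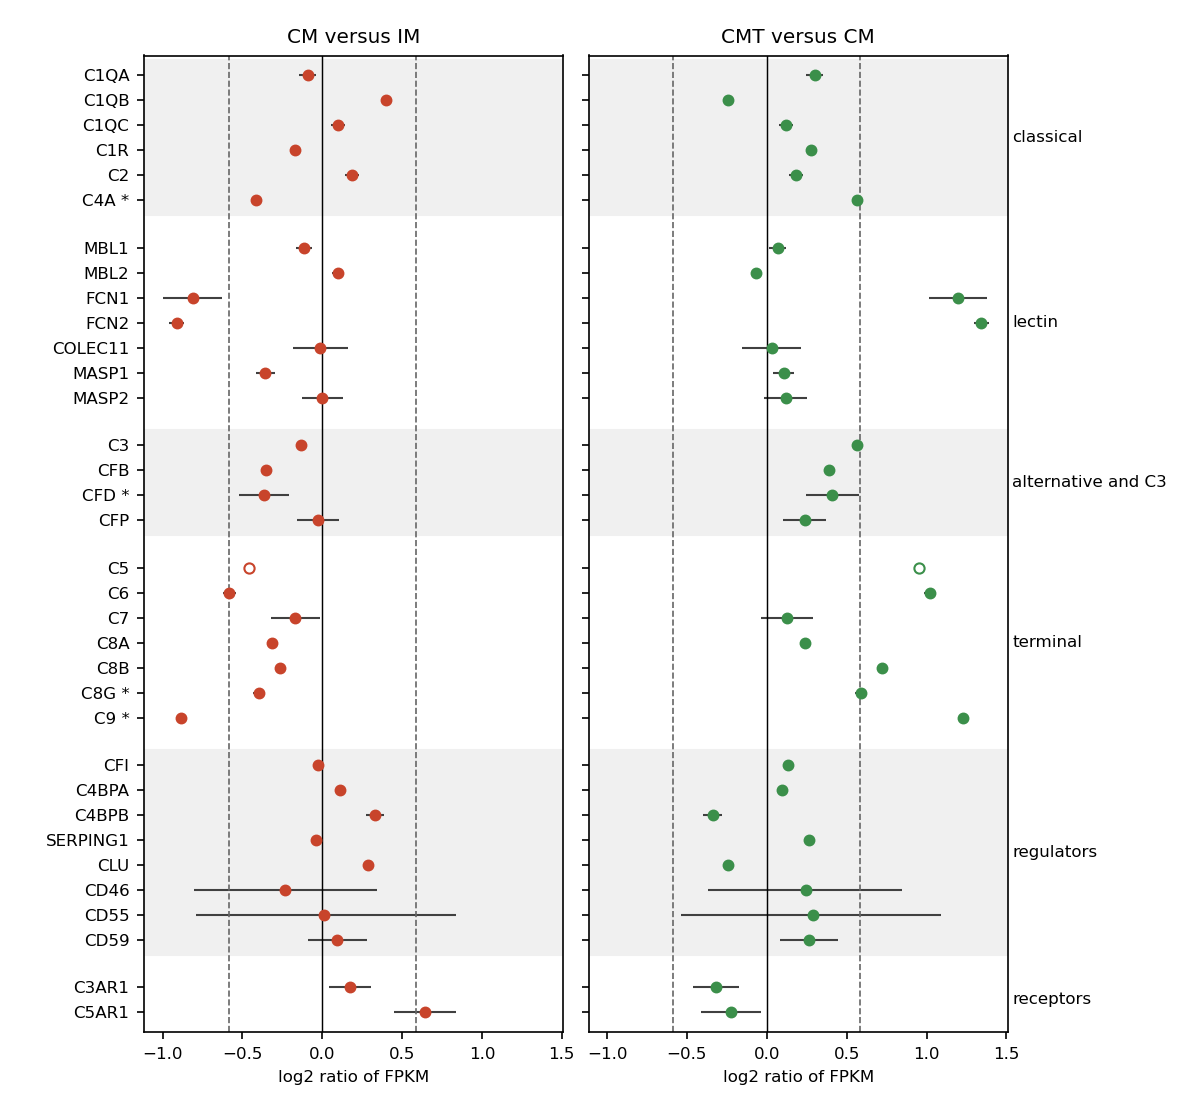
log2 ratio of FPKM for CM versus IM (left) and CMT versus CM (right), with 95% exact binomial intervals as horizontal lines (counting error only), dashed lines at 1.5-fold and an open circle for C5, for which no reads were recovered. FCN1, FCN2 and C9 lie beyond the dashed line to the left in the first panel and to the right in the second, and all 7 terminal genes lie left of 0 in the first and right of 0 in the second.

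The genes of the terminal pathway had 1 direction in each of these comparisons with the values as deposited. All 5 symbol matches, and all 7 genes with the further matches, had ratios below 1 in CM versus IM and above 1 in CMT versus CM. Of the 15613 mRNA features, 8124 were below 1 in the first comparison and 8033 above 1 in the second. The median log2 ratios over the 7 genes were -0.40 and 0.72, beside -0.020 and 0.013 for all mRNA features. Of the 7, 5 were at least 1.5-fold higher in CMT than in CM, against 12.1% of all mRNA features. Their summed FPKM was 34039, 23267 and 41343. With scaling to recovered reads CM was still the lowest library for 5 of the 7, while C7 and C8B had a slightly higher value in CM than in IM. C7 was then also lower in CMT than in CM, at a ratio of 0.925, and C8A was level at 1.0003. That scaling left 3 of the 7 at least 1.5-fold higher in CMT than in CM (C5, C6 and C9), against 6.82% of all mRNA features. C8B was then at 1.398-fold and C8G at 1.275-fold.

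C9, the protein that polymerises into the pore of the attack complex, had the highest terminal level, with FPKM values of 12975, 7034 and 16478. CM was clearly the low library, at 0.542 of IM (95% interval 0.534 to 0.550), and CMT was 2.34-fold above CM (2.31 to 2.38). The C9 entry was matched by its gene ID, and with scaling to recovered reads the log2 ratio of CM to IM was -0.60. C6, which binds C5b to begin the complex, stood at 3599, 2405 and 4887. It missed the threshold narrowly in CM versus IM, at 1.497-fold lower (a ratio of 0.668, 0.650 to 0.687), and was 2.03-fold higher in CMT than in CM (1.98 to 2.09).

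C5, the precursor of the anaphylatoxin C5a and of C5b, had 1860.1, 1353 and 2619, ratios of 0.727 and 1.94. No interval could be given for C5 because no length in the range searched gave whole numbers of reads. C8 is a trimer of chains from 3 genes, and the chains did not keep 1 ratio. C8B had 3873, 3222 and 5314 and was 1.65-fold higher in CMT than in CM (1.62 to 1.68). C8G, matched by gene ID, had 4705, 3573 and 5373 and was 1.504-fold higher (1.47 to 1.54).

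C8A, the neighbour of C8B in the pig RefSeq gene order, had 6617, 5316 and 6273 and was 1.18-fold higher in CMT than in CM (1.16 to 1.1996). The level of C8A relative to C8B was accordingly 1.71, 1.65 and 1.18, a quantity that no scaling of a library can change. C7, which anchors the growing complex in the membrane, was the least abundant terminal gene at 409.8, 365 and 398. Its interval for CMT versus CM, 0.975 to 1.22 around 1.09, includes 1. The level of C6 relative to C7 was 8.78, 6.596 and 12.3, and that of C9 relative to C7 was 31.7, 19.3 and 41.4, so both relations were lowest in CM.

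In the lectin pathway the ficolins stood apart from the mannose-binding lectins. FCN2, a plasma ficolin made in the liver that binds acetylated sugars, had FPKM values of 1399, 744 and 1887. Its CM value was 0.532 of IM (0.514 to 0.5495), and CMT was 2.54-fold above CM (2.46 to 2.62), the highest ratio of all members in that comparison. FCN1, a ficolin known mainly from monocytes and neutrophils, had 107, 60.9 and 139, ratios of 0.570 (0.501 to 0.647) and 2.29 (2.02 to 2.60).

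Both ficolins were thus lowest in CM and highest in CMT, and the level of FCN2 relative to FCN1 was nearly the same in the 3 libraries, at 13.1, 12.2 and 13.6. The genes are neighbours in the pig RefSeq order and have similar sequences, and how reads that fit both were assigned is not given in the sources used here, so the 2 values may not be independent. The 5 neutrophil markers summed to an FPKM of 162, 79.7 and 51.5 and did not share an order. S100A8, S100A9 and S100A12 passed 1.5-fold as lower in CM versus IM, on 46 reads or fewer per library, and their intervals for CMT versus CM include 1. CSF3R had 13.4, 17.4 and 15.4 and CXCR2 had 15.1, 17.1 and 15.4, both highest in CM. The part of these markers in the FCN1 values was not tested. With scaling to recovered reads FCN1 was 1.45-fold lower in CM than in IM and no longer past the threshold, while FCN2 was 1.55-fold lower.

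The other lectin genes had smaller differences. MBL2, the more abundant mannose-binding lectin, had 7018, 7503 and 7163, and MBL1, its paralogue, had 2800.25, 2588 and 2712. All of their ratios lay between 0.924 and 1.07. The level of FCN2 relative to MBL2 was 0.199, 0.0991 and 0.264. COLEC11, a collectin that also starts this route, had 584, 579 and 591, and its interval for CM versus IM was 0.879 to 1.12.

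The MBL-associated serine proteases cleave C4 and C2 once a lectin has bound. MASP1 had 322, 251 and 271 and was the only lectin gene with its highest value in IM apart from MBL1, at a CM to IM ratio of 0.781 (0.749 to 0.814). MASP2 had 95.03, 95.07 and 103, with an interval of 0.915 to 1.09 for CM versus IM. No protease passed 1.5-fold in any comparison.

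C3, the central component on which all routes converge, had FPKM values of 40457, 36914 and 54586. CMT was the high library, 1.48-fold above CM (1.47 to 1.49) and 1.35-fold above IM (1.34 to 1.36), while CM was at 0.912 of IM (0.908 to 0.917). Scaling to recovered reads turned the last difference round, to a log2 ratio of 0.15. CFB, which supplies the protease of the alternative C3 convertase, had 16118, 12602 and 16500.3, so IM and CMT were within 1.02-fold of each other and CM was at 0.782 of IM (0.775 to 0.789).

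Factor D (CFD), matched by gene ID, cleaves factor B, and its levels of 306, 238 and 316 gave a CM to IM ratio of 0.777 (0.697 to 0.867). Properdin (CFP), which stabilises the convertase and is made mainly by leukocytes, had 410.5, 403 and 475, and its interval for CM versus IM, 0.895 to 1.08, includes 1. All 4 genes of this set had their lowest value in CM and their highest in CMT as deposited, but none passed 1.5-fold. The level of C3 relative to CFB was 2.51, 2.93 and 3.31.

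**Figure D3:**
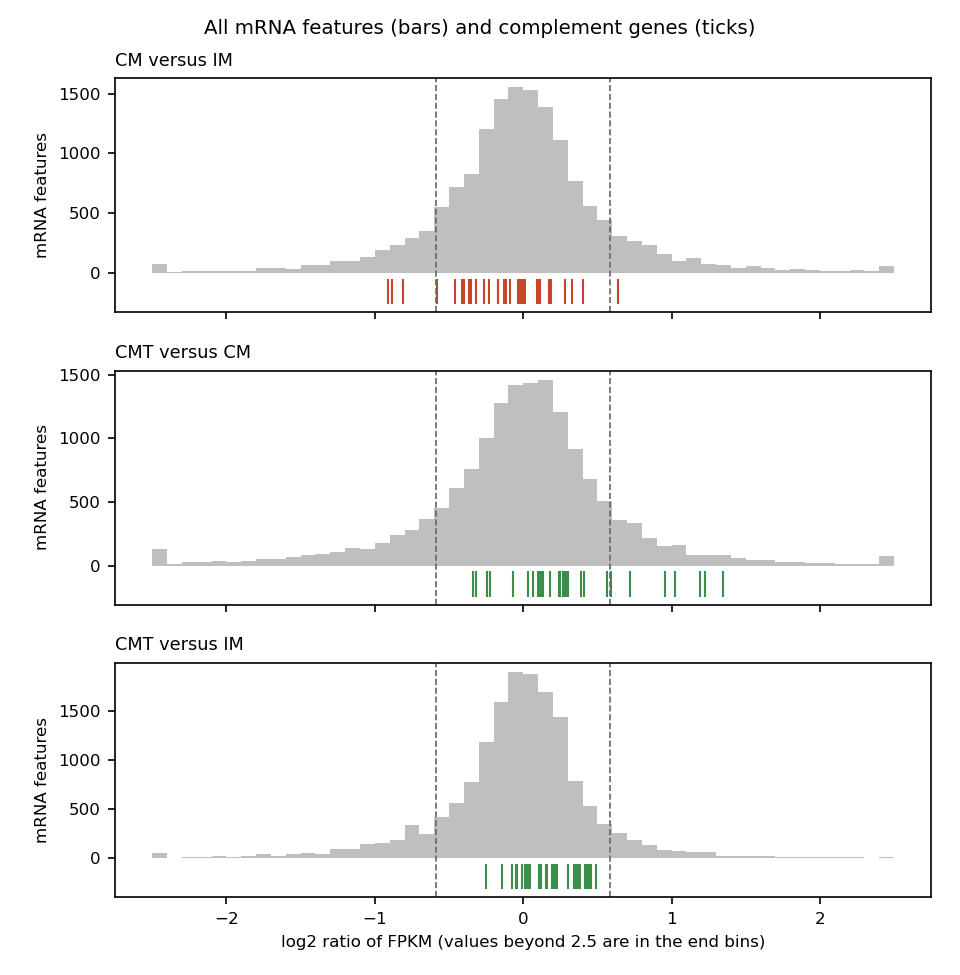
Histograms of the log2 ratio of FPKM for the 15613 mRNA features that reached an FPKM of 1 in every library (grey bars, number of features), with the 34 complement genes as ticks under each axis and dashed lines at 1.5-fold. In the middle panel the ticks reach further to the right than to the left, with 7 beyond the right line and 0 beyond the left, and in the lower panel all ticks lie between the lines.

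The classical pathway showed no gene past 1.5-fold in any comparison. The 3 chains of C1q, the antibody-binding recognition protein that macrophages such as Kupffer cells produce, did not share an order. C1QA had 4739, 4452 and 5481 and C1QC had 4585, 4916 and 5345, both highest in CMT. C1QB had 2599, 3432 and 2901 and was highest in CM, at 1.32-fold above IM (1.30 to 1.34).

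The 3 genes are adjacent in the RefSeq order and their chains are built into 1 protein. The level of C1QA relative to C1QC was 1.03, 0.906 and 1.03, whereas that of C1QA relative to C1QB was 1.82, 1.30 and 1.89. The reads of C1QB rest on a recovered length of 6216 bases, against 423 for C1QA and 579 for C1QC, so its read number and its interval are uncertain. The CM to IM ratios were 0.939, 1.32 and 1.07 for C1QA, C1QB and C1QC. Of the 8 macrophage markers found, 7 had a ratio below 1 and AIF1 was at 1.16. The 7 were MARCO at 0.2001, LYZ at 0.252, CD163 at 0.696, CD5L at 0.709, CD14 at 0.880, VSIG4 at 0.883 and CSF1R at 0.934.

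C1R, a protease of the C1 complex, had 15048, 13349 and 16201, so that CM was at 0.887 of IM (0.879 to 0.895) and CMT was 1.21-fold above CM (1.203 to 1.22). C2, which provides the protease of the classical C3 convertase, had 2149.6, 2446 and 2776, so its lowest value was in IM, and CMT was 1.29-fold above IM (1.25 to 1.33). C4, the other part of that convertase, had 4892, 3677 and 5434 under the synonym entry and was 1.48-fold higher in CMT than in CM (1.46 to 1.501). C2 and CFB are adjacent genes with related products, and their CM to IM ratios, 1.14 for C2 and 0.782 for CFB, went in opposite directions.

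No regulator passed 1.5-fold in any comparison. Among the plasma regulators, SERPING1, the inhibitor of C1r, C1s and the MASPs, had the highest level at 22566, 21978 and 26441, with a CMT to CM ratio of 1.203 (1.19 to 1.22). CFI, the protease that inactivates C3b and C4b, had 8082, 7928 and 8685, and its 3 ratios lay between 0.981 and 1.10. CLU, a chaperone that also blocks the terminal complex, had 19612, 23875 and 20178 and was highest in CM, 1.22-fold above IM (1.21 to 1.23).

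The terminal inhibitor CLU and the terminal components thus moved apart in CM, and the level of CLU relative to SERPING1 was 0.869, 1.09 and 0.763. C4b-binding protein, a cofactor for CFI, has chains from the adjacent genes C4BPA and C4BPB. C4BPA had 2616, 2829.9 and 3029 and was highest in CMT, whereas C4BPB had 1606, 2019 and 1596 and was highest in CM, 1.26-fold above IM (1.21 to 1.30). The level of C4BPA relative to C4BPB was 1.63, 1.40 and 1.90.

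The membrane regulators, which protect host cells, had low levels in this tissue. CD59, which blocks the insertion of C9, had 187, 199.8 and 240.0 and was 1.28-fold higher in CMT than in IM (1.12 to 1.47). CD46 had 66.2, 56.3 and 66.8 from 50, 58 and 41 recovered reads, and CD55, which speeds the decay of convertases, had 12.1, 12.3 and 14.9 from 24, 33 and 24. The intervals of all ratios of CD46 and CD55 include 1, for example 0.573 to 1.27 for CD46 and 0.579 to 1.78 for CD55 in CM versus IM. Differences of a size within these intervals were not detectable at this depth.

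The receptors for C3a and C5a were highest in CM, also under every scaling. C5AR1, the C5a receptor of neutrophils and macrophages, had 103, 161 and 138 and was the only member at least 1.5-fold higher in CM than in IM, at 1.56-fold (1.37 to 1.79), with CMT at 0.856 of CM (0.751 to 0.975). C3AR1 had 185, 208 and 167, ratios of 1.13 (1.03 to 1.24) and 0.801 (0.7245 to 0.885). The level of C5AR1 relative to C3AR1 was 0.559, 0.773 and 0.826. The precursor C5 and its receptor therefore had opposite orders in CM, with C5 lowest and C5AR1 highest there.

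**Figure D4:**
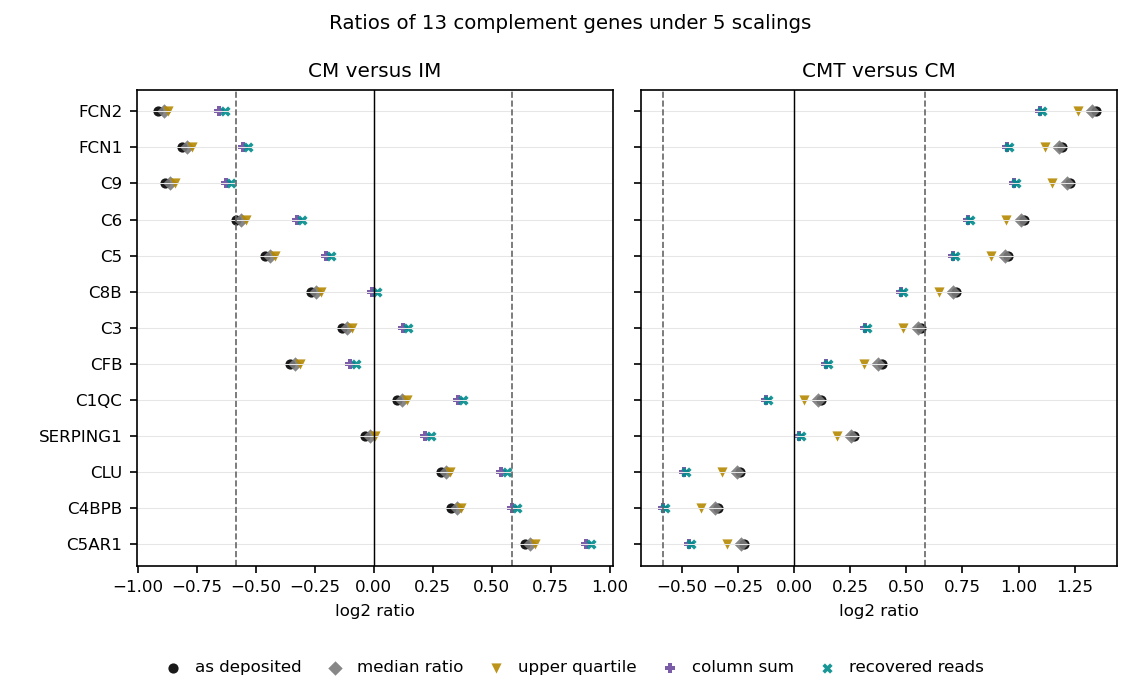
log2 ratios of 13 complement genes, picked to span the range, for CM versus IM (left) and CMT versus CM (right) under 5 scalings of the libraries, with dashed lines at 1.5-fold and no error bars. Scaling by column sum or recovered reads moves every gene by the same step, to the right in the first panel and to the left in the second, so that C3 crosses 0 in the first panel while FCN2 and C9 stay beyond the left line.

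Further complement genes were listed by function, 19 in all, of which 18 were in the tables and 15 passed the minimum, ITGAX among them as an entry that is not mRNA. CM versus IM gave 2 higher and 2 lower of these 15, where 11.1% and 12.1% of all mRNA features were. CMT versus CM gave 4 higher and 2 lower, against 12.1% and 13.5% of all mRNA features. In CMT versus IM, 3 were higher (CRP, ITGAM and CALR) and 2 lower (ITGAX and SUSD4), against 6.67% and 10.1%. Those lower in CM were VTN and CRP. VTN encodes vitronectin, which keeps the terminal complex out of membranes, and had 40845, 25701 and 38129.5, ratios of 0.629 and 1.48 without an interval. CRP, the acute phase protein that binds C1q, had 1531, 832 and 2568, ratios of 0.543 and 3.09. Both genes were lower in CM, like the terminal components, whereas CLU was higher. CRP was at least 1.5-fold higher in CMT than in CM, as were CPN2, a subunit of the enzyme that trims the anaphylatoxins, at 700.5, 536 and 1008, the C1r-like gene C1RL at 95.5, 74.8 and 123, and CD93 at 292, 199.9 and 301.

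The 2 genes higher in CM than in IM were ITGAM, the alpha chain of complement receptor 3 on myeloid cells, at 11.1, 20.3 and 16.8, a ratio of 1.82 (1.42 to 2.36), and SUSD4, a membrane inhibitor, at 26.1, 49.3 and 16.8, a ratio of 1.89 (1.46 to 2.45). SUSD4 was also lower in CMT than in CM, as was ITGAX at 13.7, 13.6 and 6.74, whose interval of 0.195 to 1.12 includes 1. The macrophage complement receptor VSIG4 had 434, 384 and 469 and passed 1.5-fold in neither comparison. ITGB2, which pairs with both integrin chains, had 168, 204 and 170.4.

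Acute phase proteins were set beside the complement genes as a list of 10. Their summed FPKM was 248673, 156516 and 317623. In CM versus IM, 6 were at least 1.5-fold lower and 2 higher, against 12.1% and 11.1% of all mRNA features. In CMT versus CM, 6 were higher and 2 lower, against 12.1% and 13.5%. ITIH4 had 10947, 3391 and 16428, while SAA3 had 1493, 3391 and 1811, the opposite order. The 10 ratios in CM versus IM ran from 0.3097 for ITIH4 to 2.27 for SAA3. That range is wide enough to hold the ratios of all 34 complement genes, from 0.532 for FCN2 to 1.56 for C5AR1, so it sets none of them apart. C3, CFB and SERPING1, themselves known as acute phase proteins, were at 0.912, 0.782 and 0.974. They are examples and do not stand for every complement gene that may belong to the acute phase. In the same comparison C9 was at 0.542 and C4 at 0.7515, both below 1, whereas C4BPB was above 1, at 1.26. The part of the acute phase response in these values was not tested.

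Interferon-induced genes had the opposite order, with 9 of 10 at least 1.5-fold higher in CM than in IM, against 11.1% of all mRNA features. In CMT versus CM, 8 were lower, against 13.5%. Their summed FPKM was 5012, 9332 and 5327. Several complement genes, C2, CFB and SERPING1 among them, are known to respond to interferons. The CM to IM ratios of these 3 were 1.14, 0.782 and 0.974 as deposited. With scaling to recovered reads they were 1.38, 0.9495 and 1.18. Lymphocyte markers summed to 211, 293 and 153, and bile duct markers to 89.4, 159 and 102. The part of these lists in the values of the complement genes was not tested.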

How the data were processed

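Livers of the 3 groups were sequenced by the study as 1 poly-A selected, paired-end library per group, pooled from total RNA. The authors checked reads with FastQC, mapped them with TopHat to the pig reference genome and deposited FPKM values for each feature; the program that counted reads and the annotation are not given in the sources used here. No value of an unmapped column was used, and no library was left out.

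The FPKM values were used as deposited, without a pseudocount. Reads were recovered as the smallest length from 30 to 10000 bases that makes the 3 values of a gene whole numbers of reads (tolerance 1e-06 reads), which gave reads for 23090 of 24277 features above 0 (95.1%). The recovery was tested on simulated data. An interval is too narrow if the 2 mates of pairs were counted separately or the length is too long by a factor, and too wide where a common factor was lost. Comparisons were ratios of FPKM, counted at 1.5-fold among the 15613 of 22945 mRNA features that reached an FPKM of 1 in all libraries. Members and gene lists were chosen with earlier results of these data known. Every member was named, and further complement genes when past 1.5-fold in CM versus IM or CMT versus CM, with VSIG4, ITGB2 and CALR added after their values were seen. A result of that list is not reported here. Gene order and synonyms came from RefSeq (Sscrofa11.1), a different build from that of the reads, so no coordinates are given. Promoter sequences were not used here. Alternatives were other FPKM minimums, a pseudocount of 1, a threshold of 2-fold, 4 scalings and intervals that leave out 1, and, added after seeing the data, matches by gene ID or synonym. Python 3.11.15 was used with numpy 2.4.6, pandas 2.3.3, scipy 1.17.1 and matplotlib 3.10.9.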

Additional observations from a re-analysis of the deposited data

How the results depend on the processing

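In CMT versus IM, 0 members were past the threshold in either direction under every alternative run. An FPKM minimum of 10 left the members' counts as they were. All mRNA features past 1.5-fold then numbered 2027 in CM versus IM, 2303 in CMT versus CM and 1088 in CMT versus IM. At the minimum of 1 they numbered 3621, 4006 and 2618. Fewer features were compared at the minimum of 10, and the share of them past 1.5-fold is not given here. At a threshold of 2-fold, CM versus IM gave 0 members higher and 0 lower and CMT versus CM gave 3 higher, with 1464, 1744 and 959 of all features in the 3 comparisons. Requiring an interval that leaves out 1 lowered all features to 2676 in CM versus IM, 2953 in CMT versus CM and 1507 in CMT versus IM, and left 4 members higher in CMT than in CM, since C5 has no interval. Scaling to recovered reads gave 3 members higher and 1 lower for CM versus IM, with a median log2 ratio of 0.25, and a median of -0.028 in CMT versus CM. Scaling to equal column sums gave 3 higher and 1 lower, with a median of 0.22, and 1 lower (C4BPB) with a median of -0.037 in CMT versus CM. Scaling by the upper quartile gave a median of 0.13 in CMT versus CM. The members also matched by gene ID or synonym, an addition made after seeing the data, had a median of -0.10 in CM versus IM. Of 90 member ratios, 68 moved outside their interval with recovered reads, 57 with column sums, 42 with the upper quartile, 12 with the median ratio and 0 with a pseudocount, and no member past 1.5-fold changed direction. The ratios of C5 were instead judged by the median spread of the other members' intervals. No paired analysis was possible because each group has 1 library, and no replicate could be left out. Depth limits CD46 and CD55, which rest on 24 to 58 reads per library.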
